A study of Mus musculus with 4 samples.

Results

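The genes described here are 10 secreted factors through which intestinal stromal cells signal to the epithelium, followed in single-cell RNA-Seq of the small intestinal lamina propria of WT and A20ZF7 mice. They are the R-spondins *Rspo1*, *Rspo2* and *Rspo3*, the Wnt ligands *Wnt2b*, *Wnt4* and *Wnt5a*, the bone morphogenetic proteins *Bmp4*, *Bmp5* and *Bmp7*, and the BMP antagonist *Grem1*. They were taken as a named list, chosen with earlier results of these data known, and were matched by gene ID. All 10 of 10 were found in both gene lists, which held 33696 genes for WT and 32285 for A20ZF7. A20ZF7 mice carry point mutations in both copies of the gene for A20, a ubiquitin-editing protein, that remove the binding of linear (M1) ubiquitin by its zinc finger 7; the mutation is in the germ line and so is shared by every cell type. Lamina propria cells came from the proximal small intestine of 12-week-old animals, 2 per genotype. Those 2 mice were pooled after separate hashtagging, 60000 cells per genotype were taken into a 10x Genomics 5′ kit, and each genotype gave 1 library. The cells had been selected for T cells and innate lymphoid cells by removal of others, so the stromal barcodes are those left after a step that works against them. With 1 library per genotype there was no test between genotypes, cells are not replicates, and every interval given covers counting error only.

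R-spondins bind LGR receptors and prolong Wnt receptor life at the cell surface, and together with canonical Wnt ligands they sustain the stem cells at the crypt base. BMP ligands act in the opposite direction and favour differentiation along the villus. Gremlin 1 binds BMP2, BMP4 and BMP7 and so keeps their signal low around the crypt. In the mouse gut these factors come mostly from mesenchymal cells that differ by position. *Pdgfra*-high subepithelial cells are a known source of BMPs and noncanonical Wnt ligands, and deeper *Cd34*- or *Cd81*-positive cells are a known source of gremlin 1 and R-spondin 3.

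RefSeq promoter sequences were at hand for 6 of the 10 genes. Those of *Grem1*, *Bmp4* and *Bmp5* are shown because these are the antagonist and the pair of ligands with the most unique molecular identifiers (UMIs). Each is the 250 bases before the transcription start, 5′ to 3′ on the strand of the gene, in GRCm38.p6, with every CG dinucleotide in capitals. They lie at chr2:113758649-113758898 on the minus strand for *Grem1*, at chr14:46390670-46390919 on the minus strand for *Bmp4* and at chr9:75775115-75775364 on the plus strand for *Bmp5*.
Grem1: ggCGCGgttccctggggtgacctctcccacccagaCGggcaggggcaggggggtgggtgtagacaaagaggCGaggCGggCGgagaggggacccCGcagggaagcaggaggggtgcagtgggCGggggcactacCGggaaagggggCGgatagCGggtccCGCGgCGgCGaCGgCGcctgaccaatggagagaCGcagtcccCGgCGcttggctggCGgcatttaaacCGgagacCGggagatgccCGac
Bmp4: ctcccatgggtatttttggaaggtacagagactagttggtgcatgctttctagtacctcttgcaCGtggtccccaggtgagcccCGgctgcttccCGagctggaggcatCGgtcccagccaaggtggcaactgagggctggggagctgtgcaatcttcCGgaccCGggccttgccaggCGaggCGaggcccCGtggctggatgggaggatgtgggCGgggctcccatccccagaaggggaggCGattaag
Bmp5: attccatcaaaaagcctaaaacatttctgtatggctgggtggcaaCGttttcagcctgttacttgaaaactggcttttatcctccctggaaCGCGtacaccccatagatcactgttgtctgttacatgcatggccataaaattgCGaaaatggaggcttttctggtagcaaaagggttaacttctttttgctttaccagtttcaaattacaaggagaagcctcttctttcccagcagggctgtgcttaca

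The windows of *Grem1* and *Bmp4* held 24 and 11 CG dinucleotides, and that of *Bmp5* held 4, against a median of 6 over the 32807 RefSeq windows of this length. The other windows held 22 for *Rspo1*, 36 for *Wnt2b* and 44 for *Wnt4*. The GC box GGGCGG, searched on both strands, occurred 3 times before *Grem1*, 1 time before *Bmp4* and not before *Bmp5*, and 32.7% of all windows held it. Before *Wnt2b* and *Wnt4* it occurred 2 and 7 times. The CCAAT box was found before *Grem1* and *Wnt2b* (33.8% of all windows), and the letters TATAAA before none of the 6 (12.4% of all windows). These matches describe the letters of the windows alone.

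After filtering, 14753 WT and 43218 A20ZF7 barcodes were kept, with medians of 1059 and 853 UMIs. Clusters were named from marker genes, with the 10 members left out of the genes used for clustering. The 5 fibroblast-like clusters held 5336 WT and 12375 A20ZF7 barcodes, the 3 smooth muscle-like clusters 1956 and 1721, the 3 endothelial-like clusters 481 and 1676, and the 1 epithelial-like cluster 497 and 79. All 9 fibroblast markers, all 8 smooth muscle markers and all 9 blood endothelial markers were detected in their own class in both libraries. These lists had named the clusters, and all of them were detected in leukocyte barcodes of both libraries too. Detection alone therefore does not set the classes apart. The fibroblast class was not made of the same clusters in both libraries. A cluster led by *Sfrp1*, *Serpina3n* and *C3* held 362 WT and 5771 A20ZF7 barcodes, and a cluster led by *Plac9a*, *Mfap4* and *Ltbp4* held 2184 WT and 90 A20ZF7 barcodes. T cell genes were present in every stromal class, at a higher level in A20ZF7. The sum of *Cd3e*, *Cd3d*, *Cd3g* and *Trac* was 244 CPM (UMIs of the gene or genes over all UMIs of the same barcodes, times 1000000) in WT fibroblast barcodes and 764.5 CPM in A20ZF7 ones, and 23.2% and 52.8% of these barcodes carried a UMI of 1 of them or of *Ptprc*. The corresponding sums were 260 and 873 CPM in smooth muscle and 369 and 1035 CPM in endothelial barcodes. Below, fibroblasts, smooth muscle and endothelial clusters mean these classes taken whole. In a second clustering, part of these barcodes fell in sub-clusters led mostly by lymphocyte, mast cell or pancreatic enzyme genes. Such unnamed sub-clusters held 53.55% of the UMIs of the 4 classes in A20ZF7 and 15.65% in WT. The libraries shared 185 cell barcodes among those of the 4 classes.

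Levels are CPM over all UMIs of a class and library. Since 5′ tags count transcript ends and are not scaled to length, the level of each gene was compared across cells. Where genes are ranked against each other, the order is that of UMIs or barcodes detected. The background of each gene was read in 5333 WT and 19888 A20ZF7 leukocyte barcodes and in near-empty droplets of 1 to 50 UMIs. Over all leukocyte barcodes of a library the R-spondins and Wnt ligands were at 0 to 1.92 CPM, and *Bmp4*, *Bmp5*, *Bmp7* and *Grem1* at 2.73 to 8.55 CPM. Among the 7 leukocyte clusters the highest values were 56.4 CPM for *Bmp4*, 31.8 CPM for *Grem1*, 30.4 CPM for *Bmp5* and 11.6 CPM for *Wnt5a*, and the medians of these 4 were 0.923 to 4.805 CPM. In near-empty droplets *Bmp4* was found at 40.9 CPM in WT and 55.8 CPM in A20ZF7, and *Grem1* at 30.7 and 58.7 CPM, so free stromal RNA was present in both libraries.

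**Figure D1:**
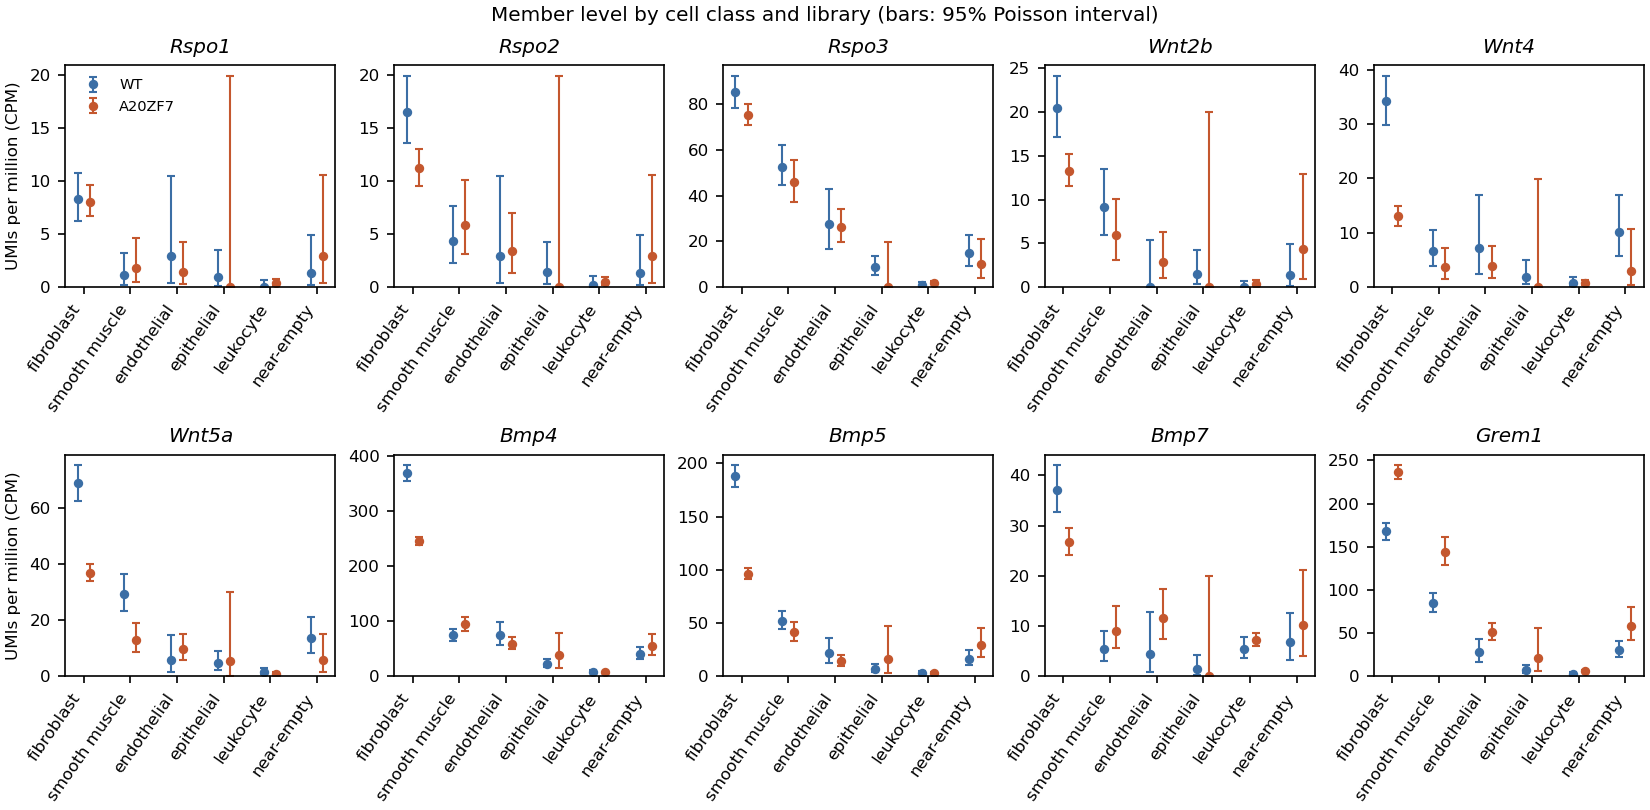
Level of each gene (CPM, linear axes from 0) in 4 cell classes, in leukocyte clusters and in near-empty droplets of the WT (blue) and A20ZF7 (orange) libraries; points are 1 library each and bars are 95% exact Poisson intervals. In both libraries all 10 genes were highest in the fibroblast class among the 4 classes. The intervals of the A20ZF7 epithelial class, with 79 barcodes, are wide.

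Among the R-spondins, *Rspo3* (chr10:29452416-29535867, minus strand) was the most widely detected. In fibroblasts it stood at 85.3 CPM in WT (95% Poisson interval 78.4 to 92.5) and 75.5 CPM in A20ZF7 (71.1 to 80.0), a ratio of A20ZF7 to WT of 0.885 (0.7999 to 0.980). In smooth muscle it stood at 52.8 and 45.8 CPM, and in endothelial clusters at 27.6 and 26.2 CPM, ratios of 0.869 (0.667 to 1.13) and 0.948 (0.553 to 1.69). A UMI of *Rspo3* was found in 9.54% of WT and 8.17% of A20ZF7 fibroblast barcodes, or 4.37% and 3.83% after thinning each barcode to 500 UMIs. The shares of leukocyte barcodes were 0.11% and 0.16% before thinning and 0.075% and 0.079% after it. The order from fibroblasts to smooth muscle to endothelium was the same in both libraries, and neighbouring intervals did not overlap. The gene lists of the libraries were not the same, so reference annotation and genotype cannot be told apart in any of these ratios.

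*Rspo1* and *Rspo2* were rarer. *Rspo1* (chr4:124986430-125009099, plus strand) had 56 UMIs in WT and 121 in A20ZF7 fibroblasts, 8.29 and 8.07 CPM, a ratio of 0.973 (0.703 to 1.36). In each of the other 3 classes it had at most 4 UMIs per library. *Rspo2* (chr15:43020794-43170826, minus strand) was found at 16.6 CPM in WT and 11.2 CPM in A20ZF7 fibroblasts, a ratio of 0.676 (0.529 to 0.866), and at 4.40 and 5.90 CPM in smooth muscle.

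All 3 Wnt ligands were lower in the A20ZF7 fibroblast class taken whole. *Wnt4* (chr4:137277489-137299726, plus strand), a ligand of the noncanonical and canonical pathways, had 231 UMIs in WT and 195 in A20ZF7 although the A20ZF7 class held more barcodes. Its level was 34.2 CPM (29.9 to 38.9) in WT and 13 CPM (11.2 to 14.96) in A20ZF7, a ratio of 0.380 (0.313 to 0.462). It was the 1 member past 2-fold in fibroblasts, where 4.89% of all 14427 genes measured were at least 2-fold lower. In fibroblast barcodes without a *Ptprc* or T cell UMI its ratio was 0.542, and averaged over the shared sub-clusters 0.509, both short of 2-fold. The share of fibroblast barcodes with a *Wnt4* UMI was 3.65% in WT and 1.46% in A20ZF7, or 1.74% and 0.68% after thinning. Near-empty droplets held it at 10.2 and 2.94 CPM. In the other classes it had at most 18 UMIs per library and a level of 0 to 7.26 CPM.

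*Wnt5a* (chr14:28504750-28527448, plus strand), the main noncanonical Wnt ligand of the gut mesenchyme, was found at 69.0 CPM (62.9 to 75.5) in WT and 36.9 CPM (33.9 to 40.1) in A20ZF7 fibroblasts, a ratio of 0.535 (0.472 to 0.607). In smooth muscle it stood at 29.3 and 13.2 CPM, a ratio of 0.449 (0.283 to 0.694), with 80 and 29 UMIs behind it. In both classes the intervals of the libraries did not overlap. Taken against the smooth muscle barcodes hashtagged to WT mouse 1 alone (10 UMIs, 21.3 CPM) or mouse 2 alone (9 UMIs, 17.75 CPM), *Wnt5a* was no longer past 2-fold, with ratios of 0.618 and 0.741. *Wnt2b* (chr3:104945272-104961921, minus strand), a canonical ligand, was found at 20.4 CPM in WT and 13.3 CPM in A20ZF7 fibroblasts, a ratio of 0.649 (0.520 to 0.813), and at 9.16 and 5.90 CPM in smooth muscle, where the interval of the ratio (0.302 to 1.31) included 1.

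The 3 BMP ligands were also lower in the A20ZF7 fibroblast class taken whole. *Bmp4* (chr14:46383520-46390669, minus strand) was found at 368 CPM (354 to 383) in WT and 245 CPM (237 to 253) in A20ZF7, a ratio of 0.665 (0.632 to 0.700), and 34.5% and 23.8% of barcodes carried a UMI of it. The share was 17.6% and 12.4% after thinning, against 0.84% and 0.55% of leukocyte barcodes before thinning. In smooth muscle *Bmp4* stood at 74.0 and 94.4 CPM, a ratio of 1.275 (1.05 to 1.555). Endothelial clusters held it at 75.5 CPM (56.4 to 99.0) and 59.1 CPM (49.1 to 70.6), beside 40.9 and 55.8 CPM in near-empty droplets.

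*Bmp5* (chr9:75775364-75900310, plus strand) was found at 188 CPM (178 to 199) in WT and 96.6 CPM (91.7 to 102) in A20ZF7 fibroblasts, a ratio of 0.514 (0.476 to 0.554). That ratio lay just inside the 2-fold limit. In smooth muscle it stood at 52.4 and 41.3 CPM, with a ratio of 0.788 (0.599 to 1.03). *Bmp7* (chr2:172868012-172940321, minus strand) was found at 37.2 CPM (32.7 to 42.04) in WT and 26.7 CPM (24.2 to 29.5) in A20ZF7 fibroblasts, a ratio of 0.720 (0.613 to 0.846). In endothelial clusters *Bmp7* had 3 UMIs in WT and 24 in A20ZF7, a ratio of 2.67 whose interval ran from 0.810 to 13.9, and its 11.6 CPM in A20ZF7 compares with 10.3 CPM in the near-empty droplets of that library.

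*Grem1* (chr2:113746164-113758646, minus strand) was the 1 member that was higher in the A20ZF7 fibroblast class taken whole. It was found at 168 CPM (158 to 178) in WT and 237 CPM (229 to 245) in A20ZF7, a ratio of 1.41 (1.32 to 1.51), and 12.9% and 17.6% of the barcodes carried a UMI of it, or 6.86% and 10.1% after thinning. In smooth muscle it stood at 84.65 and 144 CPM, a ratio of 1.705 (1.435 to 2.03), and in endothelial clusters at 27.6 and 50.9 CPM, a ratio of 1.84 (1.12 to 3.18). The endothelial levels were those of the near-empty droplets of the same library, 30.7 CPM in WT and 58.7 CPM in A20ZF7, where the ratio also lay above 1. In leukocyte clusters *Grem1* stood at 2.73 and 6.32 CPM on 15 and 102 UMIs, a ratio of 2.315 (1.34 to 4.29). Why it was higher there was not tested.

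**Figure D2:**
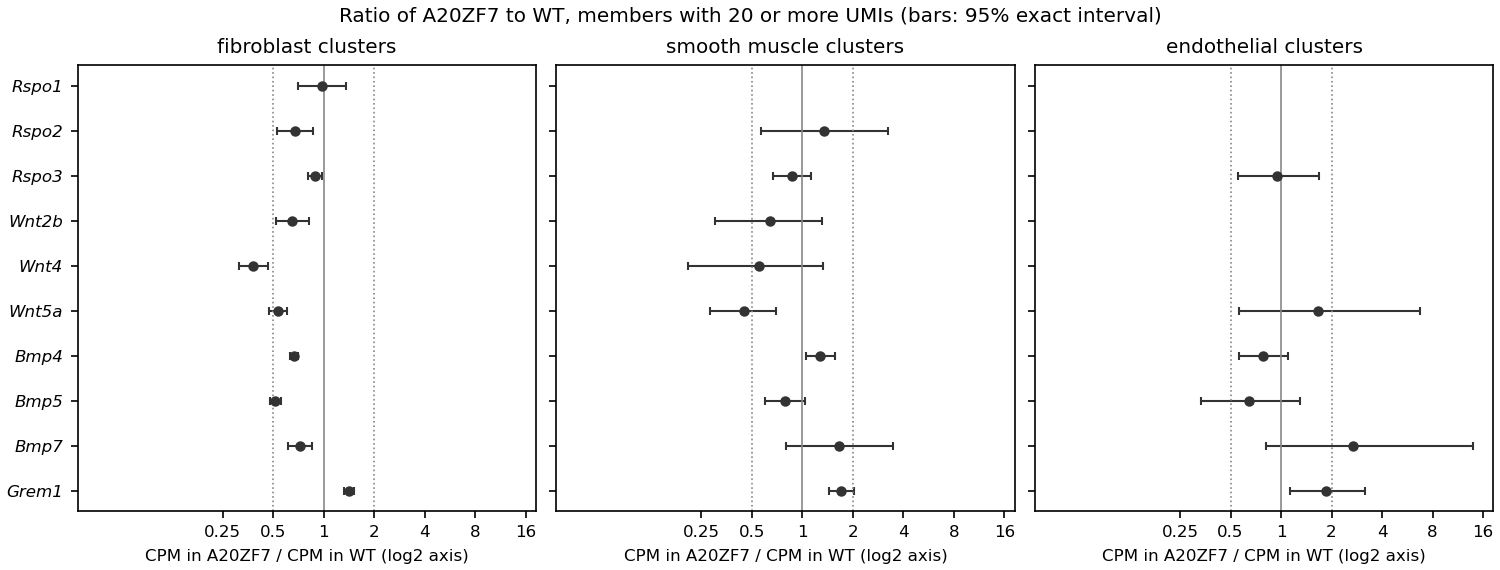
Ratio of the A20ZF7 to the WT level for members with 20 or more UMIs over both libraries (log2 axis; points are the ratio of 2 libraries, bars its 95% exact interval, dotted lines 2-fold). In fibroblasts 9 of 10 points lie below 1 and *Grem1* lies above it, at 1.41. The median over all genes measured there also lies below 1, at 0.953, and the interval of *Rspo1* includes 1.

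Counted by class, 10 of 10 members were measured in fibroblasts with at least 20 UMIs, and 0 were at least 2-fold higher and 1 at least 2-fold lower, against 8.13% and 4.89% of all genes. The median ratio of the members was 0.670, beside 0.953 over all genes measured. In smooth muscle 9 were measured, with 0 at least 2-fold higher and 1 (*Wnt5a*) at least 2-fold lower, against 7.53% and 4.72% of 11825 genes, and the medians were 0.869 and 0.989. In endothelial clusters 6 were measured, with 1 (*Bmp7*) at least 2-fold higher and 0 lower, against 8.63% and 5.34% of 10325 genes. These counts are near the shares of all genes. The summed markers of the fibroblast, smooth muscle and endothelial classes were also lower in A20ZF7. Those of the epithelial class were not, at 5446 CPM in WT and 6745 CPM in A20ZF7 epithelial barcodes. The 9 fibroblast markers summed to 20840 CPM in WT and 14830 CPM in A20ZF7 fibroblast barcodes. The 8 smooth muscle markers summed to 24890 and 13450 CPM in smooth muscle, and the 9 blood endothelial markers to 5184 and 2975 CPM in endothelial clusters. The part of this difference in the ratios and medians of the members was not tested.

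Epithelial barcodes held little of any member. Of the 10 genes, *Bmp4* and *Grem1* alone reached 20 UMIs there. *Bmp4* was found at 23.2 CPM in WT and 37.9 CPM in A20ZF7, and *Grem1* at 7.73 and 21.6 CPM on 16 and 4 UMIs, a ratio of 2.80 (0.681 to 8.68). That makes 1 of 2 past 2-fold higher, where 19% of 8243 genes were, and 0 lower, against 15.1%. All of these levels were below those of the near-empty droplets of the same library. *Rspo3*, at 8.70 CPM in WT epithelial barcodes, had 0 UMIs in the A20ZF7 ones, which allows a level of up to 16.2 CPM.

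Of the WT fibroblast barcodes, 882 were assigned by hashtag to mouse 1 and 1016 to mouse 2, which gives the only spread between animals. The assigned barcodes were not level with the whole library for every gene: *Rspo3*, *Wnt2b*, *Wnt5a*, *Bmp4*, *Bmp5*, *Bmp7* and *Grem1* were lower in both mice than in the WT library, and *Wnt4* was higher in both. For each of the 10 genes the interval of the ratio between the mice included 1. *Wnt4* stood at 43.8 CPM in mouse 1 and 36.7 CPM in mouse 2, both above the 13 CPM of the A20ZF7 library. *Bmp4* stood at 349 and 324 CPM, *Bmp5* at 173 and 154 CPM and *Wnt5a* at 53.6 and 50.3 CPM, and each interval lay above that of the A20ZF7 library except that of *Wnt5a* in mouse 2 (39.7 to 62.7 CPM against 33.9 to 40.1 CPM). *Grem1* stood at 128 and 133 CPM, with both intervals below the 237 CPM of A20ZF7. *Wnt2b* stood at 12.1 and 19.3 CPM, on either side of the 13.3 CPM of A20ZF7, and *Bmp7* at 33.2 and 25.1 CPM, on either side of 26.7 CPM. The spread between mice of the A20ZF7 genotype was not measured, since the antibody counts given for it were identical to those of WT.

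**Figure D3:**
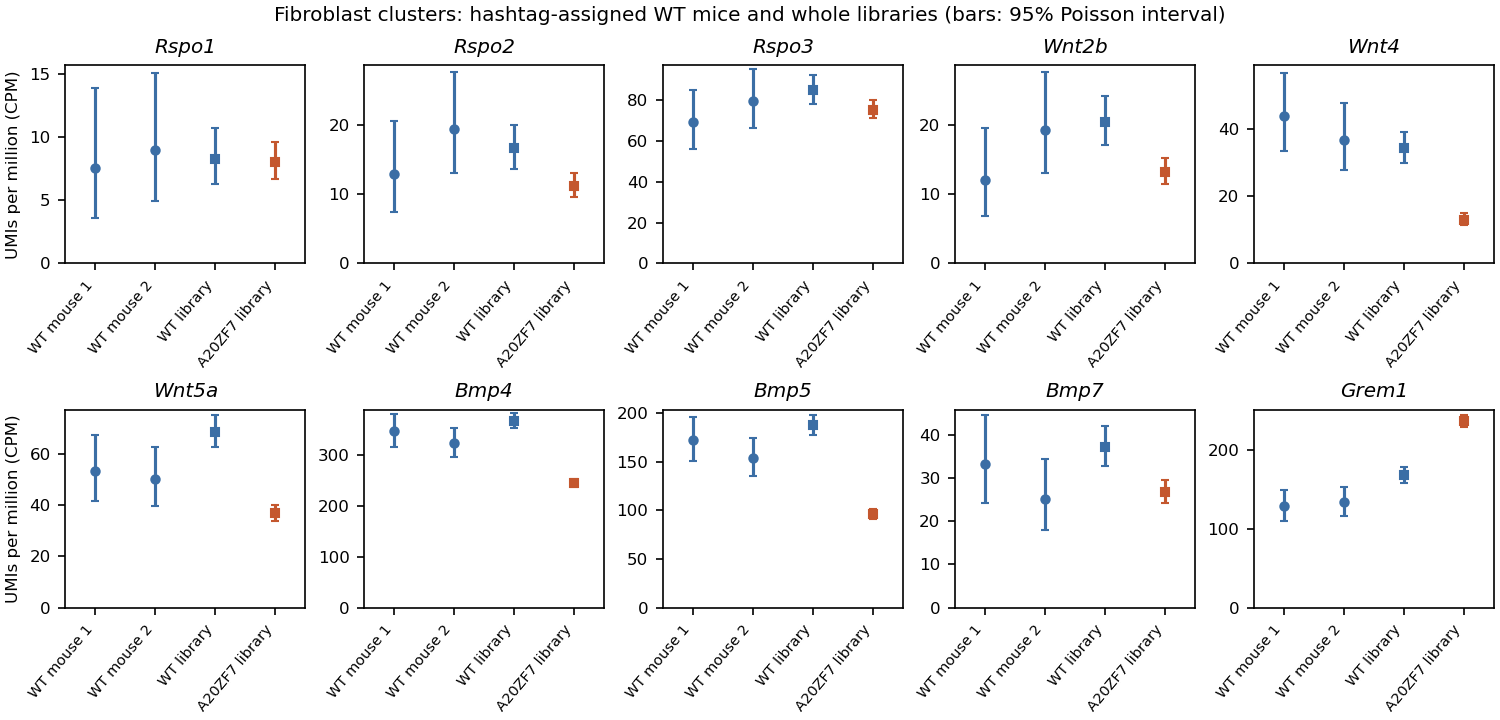
Level of each gene (CPM, linear axes from 0) in fibroblast barcodes of hashtag-assigned WT mouse 1 and mouse 2 (circles) and of the whole WT and A20ZF7 libraries (squares), with 95% exact Poisson intervals. For *Wnt4*, *Bmp4* and *Bmp5* both mice lie above the A20ZF7 library and for *Grem1* both lie below it.

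The stromal barcodes were clustered again without the members to see where each gene was made. Of 19 sub-clusters, 13 took a name from the markers, and 6 did not: 5 were led by lymphocyte, mast cell or proliferation genes and 1 by pancreatic enzyme genes. The largest unnamed one, led by *Il17a* and *Tnfrsf4*, held 106 WT and 3691 A20ZF7 barcodes. The unnamed sub-clusters held 53.55% of the UMIs of the 4 classes in A20ZF7 and 15.65% in WT. The sub-cluster led by pancreatic enzyme genes scored highest for the fibroblast list, below the limit for a name. It held 94 WT and 1979 A20ZF7 barcodes, with *Grem1* at 145 and 326 CPM. In A20ZF7 the unnamed sub-clusters held from 15.96% (*Bmp7*) to 69.7% (*Wnt2b*) of the UMIs of a member, with 56.65% for *Grem1* and 60.9% for *Bmp4*. Among the named sub-clusters the members fell into separate places within the fibroblasts. *Bmp5* and *Bmp7* were highest in subepithelial-like sub-cluster 12, led by *Sox6*, *Rbp4* and *Abcc9* and with *Pdgfra* among its 10 leading genes. There *Bmp5* was found at 946 CPM in WT and 809 CPM in A20ZF7 and *Bmp7* at 321 and 291 CPM. *Wnt5a* was highest in the same cells, at 295 and 218 CPM. In WT the 2 subepithelial-like sub-clusters held 79.8% of all *Bmp7* UMIs of the 4 classes and 49.4% of those of *Bmp5*, with 7.59% of all UMIs. In A20ZF7 they held 69.7% and 46.4%, with 7.94% of all UMIs.

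*Grem1* had the opposite place. It was highest in sub-cluster 8, a Pi16 Cd34 fibroblast-like group led by *Gcg*, *Ackr4*, *Piezo2* and *Grem1* itself, with 1021 CPM in WT and 1140 CPM in A20ZF7. In subepithelial-like sub-cluster 12 it had 1 UMI in WT and 2 in A20ZF7. In the other subepithelial-like group, sub-cluster 11, it was at 25.2 CPM on 11 UMIs in WT and 45.8 CPM on 55 UMIs in A20ZF7. That ratio was 1.82 (0.942 to 3.855), and near-empty droplets held *Grem1* at 30.7 and 58.7 CPM. The *Grem1*-high sub-cluster also held the highest *Rspo3* level of the named fibroblast sub-clusters, 194 and 176 CPM. *Grem1* was high too in a small smooth muscle-like group, sub-cluster 18, led by *Pcp4*, *Tnnt2* and *Actg2*, with 655 CPM in 53 WT barcodes and 624 CPM in 46 A20ZF7 barcodes, and there *Rspo3* stood at 169 and 142 CPM. Among endothelial cells *Rspo3* was highest in the lymphatic-like sub-cluster, at 163 CPM on 4 UMIs in WT and 131 CPM on 25 UMIs in A20ZF7.

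The remaining factors were highest in several sub-clusters, some of which they shared with other members. *Rspo1* was highest in sub-cluster 4, led by *Pi16*, *Igfbp6* and *Gfpt2*, at 44.2 CPM in WT and 43.3 CPM in A20ZF7. *Rspo2* was highest in WT in sub-cluster 8, beside *Grem1*, at 69.7 CPM, with 46.9 CPM in A20ZF7. *Bmp4* was highest in Adamdec1 fibroblast-like sub-cluster 1, led by *Mmp10*, *Cxcl14* and *Cxcl9*, at 579 and 526 CPM. *Wnt4* was highest there in WT, at 111 CPM, and in subepithelial-like sub-cluster 12 in A20ZF7, at 66.9 CPM. *Wnt2b*, at 38.1 CPM, was highest in WT in sub-cluster 3, a second Adamdec1 fibroblast-like group of 1789 WT and 45 A20ZF7 barcodes. Among smooth muscle-like cells the Hhip-led sub-cluster 13 held *Bmp4*, *Bmp5*, *Rspo3* and *Grem1* at 104 to 176 CPM in WT, and sub-cluster 9, led by *Sorbs2*, *Pln* and *Mustn1*, held these 4 at 1.95 to 27.3 CPM in WT.

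**Figure D4:**
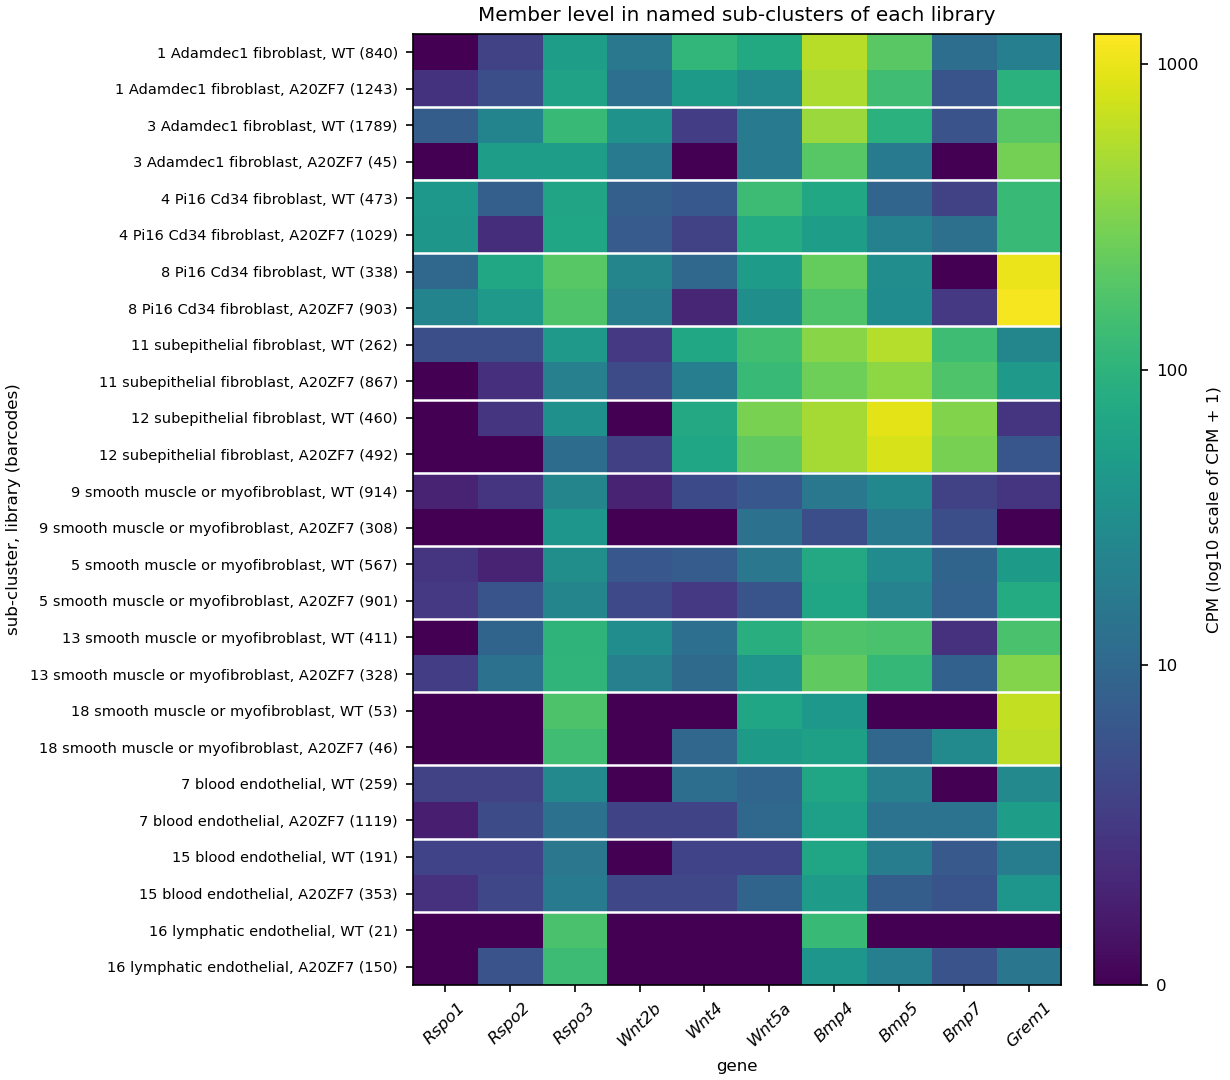
Level of each gene (colour, CPM on a log10 scale of CPM + 1) in the 13 named sub-clusters of each library, with the number of barcodes in brackets. *Grem1* is brightest in sub-clusters 8 and 18 and *Bmp5*, *Bmp7* and *Wnt5a* in sub-cluster 12, in both libraries.

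The separation of *Grem1* from *Bmp5* was seen in single barcodes too, in shares taken without thinning and without matching depth. Of 687 WT fibroblast barcodes with a *Grem1* UMI, 41 had one of *Bmp5*, or 5.97% (exact interval 4.32% to 8.01%), where 16.8% of all WT fibroblast barcodes had one. In A20ZF7 the values were 98 of 2174, or 4.51%, against 9.45%. For *Bmp4* the difference was smaller, with 28.2% of *Grem1* barcodes in WT and 21.6% in A20ZF7, against 34.5% and 23.8% of all. *Rspo3* went the other way, in 19.1% of *Grem1* barcodes in WT and 15.6% in A20ZF7, against 9.54% and 8.17% of all. *Bmp7* was found in 11.3% of WT and 9.66% of A20ZF7 barcodes with *Bmp5*, against 3.79% and 2.83% of all.

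Because the mix of sub-clusters differed between the libraries, the ratios were read again inside the fibroblast sub-clusters with at least 50 barcodes of each. In Adamdec1 fibroblast-like sub-cluster 1 (840 WT and 1243 A20ZF7 barcodes) *Grem1* was found at 20.6 CPM in WT and 94.8 CPM in A20ZF7, a ratio of 4.61 (2.84 to 7.85) on 20 and 105 UMIs. The near-empty droplets held it at 30.7 CPM (22.4 to 41.1) in WT, above the level in these barcodes, and at 58.7 CPM (41.96 to 79.98) in A20ZF7, below it. In the same cells *Wnt4* stood at 111 and 47.9 CPM, a ratio of 0.431 (0.304 to 0.604), and *Wnt5a* at 75.1 and 29.8 CPM, a ratio of 0.397 (0.255 to 0.607). That made 1 of 7 measured members at least 2-fold higher and 2 of 7 at least 2-fold lower, where 5.76% and 3.11% of all genes were. With sub-cluster 3 added, all Adamdec1 fibroblast-like barcodes (2629 in WT, 1288 in A20ZF7) gave the other direction for *Grem1*, 137.8 and 104 CPM with a ratio of 0.755 (0.611 to 0.927), and for *Wnt4*, with a ratio of 1.16 (0.824 to 1.63). Sub-cluster 3 held 1789 of those WT barcodes, with *Grem1* at 197 CPM and *Wnt4* at 2.61 CPM. In sub-cluster 1 *Bmp4* had a ratio of 0.908 (0.807 to 1.02) and *Bmp5* of 0.706 (0.568 to 0.876). The T cell sum was 62.7 CPM in WT and 195 CPM in A20ZF7 in sub-cluster 1, and its part in these ratios was not tested.

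In sub-cluster 8, where *Grem1* was highest, its ratio was 1.12 (0.994 to 1.255), and in sub-cluster 4, at 120.5 and 120.9 CPM, it was 1.003 (0.761 to 1.33). *Wnt5a* stood at 134 and 80.6 CPM in sub-cluster 4, a ratio of 0.600 (0.448 to 0.806). In sub-clusters 4 and 8, 1 of 6 and 1 of 8 measured members were at least 2-fold higher, *Bmp5* and *Rspo1*, both with intervals that included 1, against 7.71% and 7.6% of all genes, and 0 were at least 2-fold lower, against 4.48% and 3.36%.

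The 2 subepithelial-like sub-clusters did not give the same values. In sub-cluster 12 (460 WT and 492 A20ZF7 barcodes, T cell sums of 54.9 and 169 CPM) *Bmp5* had a ratio of 0.855 (0.734 to 0.994), *Bmp7* of 0.905 (0.697 to 1.17), *Bmp4* of 0.996 (0.811 to 1.22), *Wnt4* of 0.914 (0.517 to 1.59) and *Wnt5a* of 0.740 (0.552 to 0.984). In sub-cluster 11 (262 and 867 barcodes, T cell sums of 481 and 990 CPM) *Bmp5* stood at 565 and 376 CPM, a ratio of 0.664 (0.568 to 0.779), and *Wnt4* at 70.9 and 19.98 CPM, a ratio of 0.282 (0.158 to 0.496). *Rspo3* was at least 2-fold lower in both, at 0.473 (0.254 to 0.894) on 20 and 26 UMIs and at 0.337 (0.0824 to 1.03) on 17 and 4 UMIs. In sub-cluster 11, 2 of 7 and in sub-cluster 12, 1 of 6 measured members were at least 2-fold lower, against 4.42% and 4.76% of all genes, and 0 were at least 2-fold higher, against 5.54% and 5.7%. Sub-cluster 11, with more T cell UMIs, had lower ratios than sub-cluster 12 for *Wnt4*, *Bmp5* and *Bmp4* (0.737) and higher ones for *Bmp7* (1.295, 0.966 to 1.76), *Wnt5a* (0.861, 0.637 to 1.18) and *Rspo3*. The intervals of the 2 sub-clusters overlapped for all of these but *Wnt4*, and the part of the T cell UMIs was not tested.

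In smooth muscle-like sub-clusters 13 and 5 *Grem1* had a ratio above 1 and *Wnt5a* below 1. In the Hhip-led sub-cluster 13 (411 WT and 328 A20ZF7 barcodes, T cell sums of 255 and 682 CPM) *Grem1* was at 163 and 338 CPM, a ratio of 2.07 (1.57 to 2.74), and *Wnt5a* at 89.7 and 40.6 CPM, a ratio of 0.452 (0.236 to 0.819), 1 of 6 measured members in each direction against 6.57% and 4.74% of all genes. In sub-cluster 5, led by *Ctnna3*, *Notch3* and *Rcan2*, with T cell sums of 451 and 989 CPM, *Grem1* had a ratio of 1.67 (1.17 to 2.40) and *Wnt5a* of 0.3335 (0.116 to 0.857), so 0 of 6 were at least 2-fold higher and 1 of 6 at least 2-fold lower, against 4.18% and 3.26% of all genes. *Wnt5a* was at 16.04 and 5.35 CPM there, beside 13.6 CPM (8.33 to 21.1) and 5.87 CPM (1.6 to 15.04) in the near-empty droplets. In sub-cluster 9, 2 members were measured and 0 passed 2-fold in either direction (6.45% and 8.48% of all genes). In sub-cluster 18 *Grem1* had a ratio of 0.954 (0.683 to 1.33) and *Wnt5a* of 0.7145 (0.188 to 2.37) on 9 and 5 UMIs.

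Of the blood endothelial-like sub-clusters, number 7 (259 WT and 1119 A20ZF7 barcodes) had 0 of 4 measured members at least 2-fold higher and 1 at least 2-fold lower, against 8.67% and 6.56% of all genes. That member was *Rspo3*, at 0.482 (0.2005 to 1.24) on 9 and 16 UMIs. Number 15 (191 and 353 barcodes) had 1 of 2 at least 2-fold higher and 0 lower, against 8.15% and 5.84%. That member was *Grem1*, at 2.18 (0.863 to 6.54) on 6 and 23 UMIs, and its level there, 18.9 and 41.3 CPM, was below that of the near-empty droplets of each library.

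**Figure D5:**
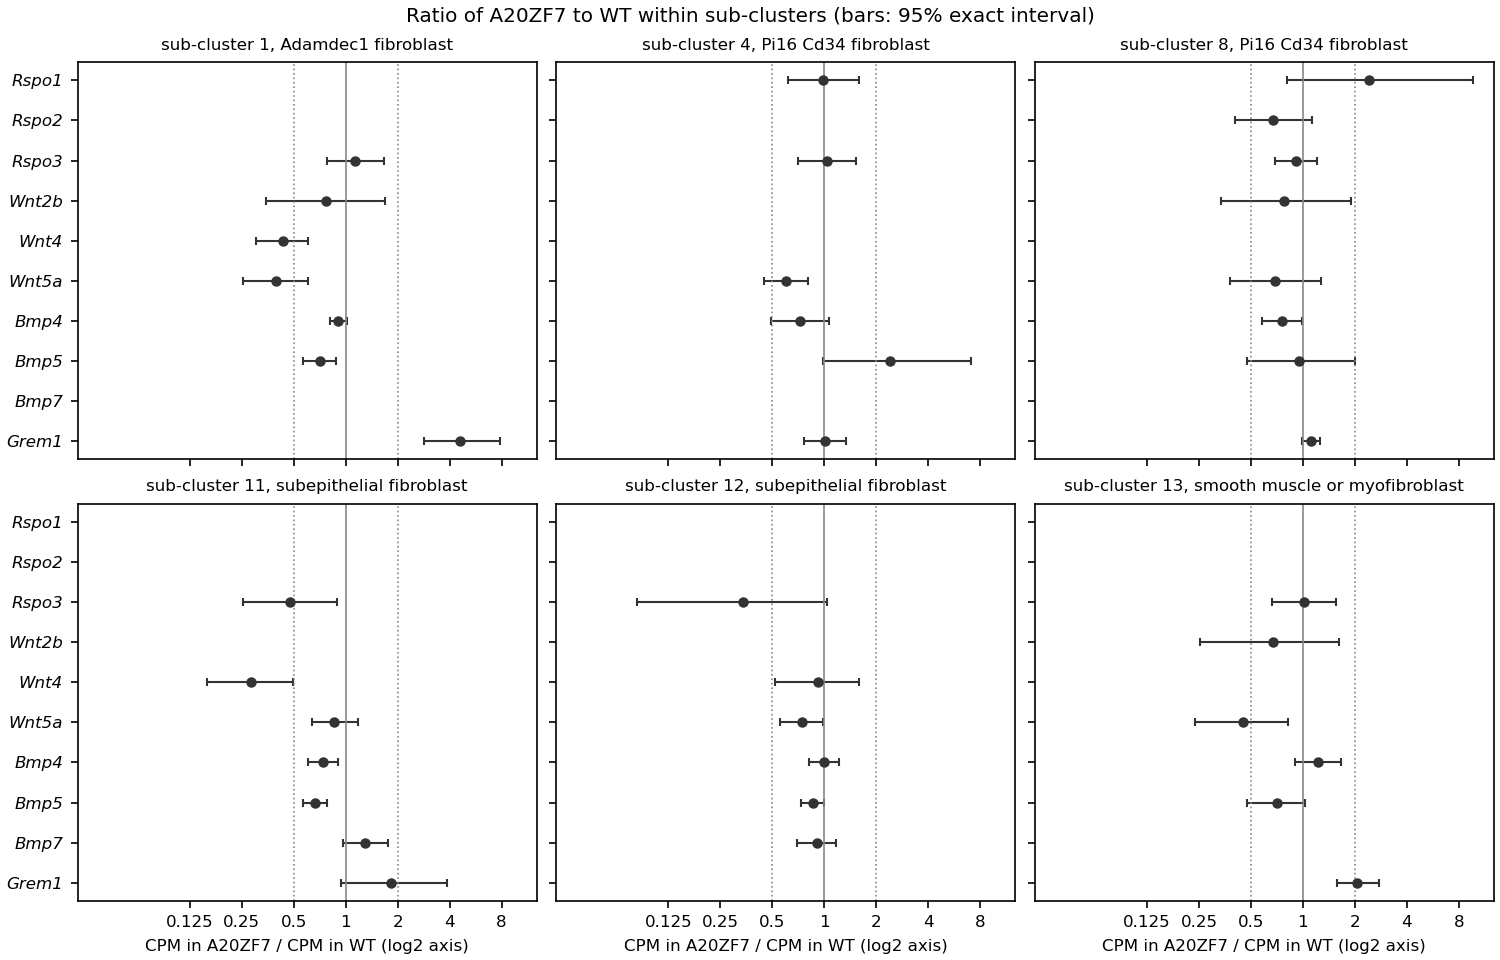
Ratio of the A20ZF7 to the WT level inside 5 fibroblast sub-clusters and smooth muscle-like sub-cluster 13, for members with 20 or more UMIs (log2 axis; bars are 95% exact intervals, dotted lines 2-fold). *Grem1* lies at 4.61 in sub-cluster 1, at 1.12 in sub-cluster 8 and at 2.07 in sub-cluster 13.

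The levels were also averaged over the 5 shared fibroblast sub-clusters, weighted by their WT barcodes in both libraries, a calculation added after the data were seen. It left out sub-cluster 3 (1789 WT and 45 A20ZF7 barcodes) and all unnamed sub-clusters, so it is not the WT mix of the whole class. The ratios were 0.509 for *Wnt4*, 0.652 for *Wnt5a*, 0.785 for *Bmp5*, 0.907 for *Bmp4*, 0.999 for *Bmp7* and 1.38 for *Grem1*. Relative to the whole class, all 6 of these were closer to 1, *Grem1* by the least. *Rspo1*, not among these 6, moved away from 1, from 0.973 to 1.18. The values of *Rspo2*, *Rspo3* and *Wnt2b* are not given here. In fibroblast barcodes with no UMI of *Ptprc* or the 4 T cell genes (4097 in WT, 5842 in A20ZF7), the ratio of *Wnt4* was 0.542, that of *Wnt5a* 0.666, that of *Bmp5* 0.633, that of *Bmp4* 0.779 and that of *Grem1* 1.72, and *Rspo3* stood at 1.07. All of these but *Rspo3* kept their side of 1.

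The genes whose levels were most like those of each member were read by Pearson's r of log2(CPM + 10). The points were 36 combinations of sub-cluster and library, which share libraries and depth and are not independent. They included the epithelial cluster and the unnamed sub-clusters led by lymphocyte, mast cell, proliferation or pancreatic enzyme genes. For *Bmp7* they were *Ltbp2* (0.94), *Bmp3* (0.94) and *Sv2b* (0.94), and for *Bmp5* *Col12a1* (0.95), *1700018A04Rik* (0.93) and *Lrp4* (0.93). For *Grem1* they were *Foxp2* (0.86), *Pbx3* (0.84) and *Fmo2* (0.81), and *Foxp2* also headed the list of *Rspo3* (0.91), before *Abi3bp* (0.83) and *Efna5* (0.82). *Rspo1* was closest to *Gfpt2*, *Has1* and *Pi16* (each 0.93), *Rspo2* to *Nlgn1* (0.85), *Shisa3* and *Pigz* (each 0.82), and *Wnt2b* to *Aff2* (0.92), *Vwc2* (0.90) and *Fzd1* (0.88). *Wnt4* was closest to *Stau2* (0.85), *Cxcl14* (0.84) and *Adgrl3* (0.82), *Wnt5a* to *Agap1* (0.86), *F3* (0.85) and *Esr1* (0.83), and *Bmp4* to *Pla2g4a*, *Dkk3* (each 0.95) and *Robo2* (0.94). Among the members themselves the highest value was that of *Wnt4* with *Bmp5* (0.79) and the lowest that of *Bmp7* with *Grem1* (-0.41).

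The other genes of both pathways came from lists of 98 ligands, receptors, inhibitors, antagonists and targets, all 98 found in the files. In fibroblasts 64 were measured, and 2 were at least 2-fold higher and 3 at least 2-fold lower in A20ZF7, with a median ratio of 0.755, beside 8.13%, 4.89% and 0.953 over all genes. The 16 measured genes of the Wnt receptor list, which also holds the ligase *Rnf43*, had a median of 0.737. Of them 1, *Rnf43* itself, was at least 2-fold higher and 0 lower. The 8 BMP receptors had a median of 0.714, with 0 higher and 0 lower. Of 7 Wnt inhibitors 0 were higher and 1 lower, and of 7 Wnt targets 1 and 1, the higher again *Rnf43*, which is on both lists. Of 9 BMP targets, 3 other Wnt ligands, 4 other BMP ligands and 2 Wnt secretion genes, 0 passed in either direction.

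The highest ratio was that of *Rnf43*. *Rnf43*, a membrane ligase that removes Wnt receptors and is itself a Wnt target, was found at 8.14 CPM in WT and 22.7 CPM in A20ZF7, a ratio of 2.79 (2.095 to 3.78). *Id2* had a ratio of 1.99 and *Lef1* of 1.90. Leukocyte clusters held more of *Rnf43* (36.6 and 50.4 CPM), *Id2* (673.5 and 753 CPM) and *Lef1* (71.3 and 61.9 CPM) than fibroblasts did. In fibroblast barcodes without a *Ptprc* or T cell UMI the ratios were 2.89 for *Rnf43*, 1.57 for *Id2* and 2.51 for *Lef1*.

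The lowest was *Wif1*, a secreted Wnt inhibitor, at 7.845 CPM in WT and 2.07 CPM in A20ZF7, a ratio of 0.263 (0.163 to 0.418). The BMP antagonist *Chrdl1* had a ratio of 0.4825 (0.279 to 0.838), the Wnt target *Sox9* of 0.497 (0.397 to 0.6215) and the R-spondin receptor *Lgr4* of 0.527 (0.384 to 0.726). Without leukocyte UMIs, meaning no UMI of *Ptprc* or the 4 T cell genes, the ratio of *Wif1* was 0.180, on 8 UMIs in A20ZF7. That of *Chrdl1* was 0.686 (0.335 to 1.38) and that of *Sox9* 0.681 (0.507 to 0.913), both no longer past 2-fold. That of *Lgr4* was 0.465 (0.293 to 0.723), past it.

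In smooth muscle 53 pathway genes were measured, 2 at least 2-fold higher and 4 lower, against 7.53% and 4.72% of all genes. The highest were *Rnf43* (3.27, 2.035 to 5.41) and the Wnt inhibitor *Frzb* (3.18, 1.68 to 6.39), and the lowest the activin receptor *Acvr2b* (0.1905, 0.0483 to 0.549) and the Wnt receptor *Fzd3* (0.248, 0.0616 to 0.739), each on 4 UMIs in A20ZF7. Without leukocyte UMIs the ratio of *Rnf43* was 1.98 (0.831 to 4.545), under 2-fold, and *Frzb* (4.19), *Acvr2b* (0.274) and *Fzd3* (0.206) were past it, *Acvr2b* on 2 A20ZF7 UMIs and *Fzd3* on 1, with intervals that included 1. In endothelial clusters 39 were measured, 3 at least 2-fold higher and 2 lower, against 8.63% and 5.34% of all genes. *Znrf3*, the paralogue of *Rnf43*, had a ratio of 2.36 (1.285 to 4.75) and the BMP target *Smad6* of 2.30 (1.18 to 5.01), and *Fzd4*, an endothelial Wnt and Norrin receptor, was found at 154 CPM in WT and 69.8 CPM in A20ZF7, a ratio of 0.453 (0.3502 to 0.588), with its co-receptor *Lrp5* at 0.473 (0.315 to 0.716). *Znrf3* stood at 54.9 and 55.2 CPM in leukocyte clusters. Without leukocyte UMIs its ratio was 2.93 (1.15 to 8.83), and *Smad6* (1.998, 0.927 to 4.66), *Fzd4* (0.553, 0.384 to 0.793) and *Lrp5* (0.606, 0.332 to 1.09) were no longer past 2-fold. In epithelial barcodes 27 were measured, 4 at least 2-fold higher and 3 lower, against 19% and 15.1% of all genes. *Znrf3* (4.798, 1.51 to 13.3, on 14 and 6 UMIs) and *Ror1* (3.11, 0.9025 to 8.69, on 18 and 5) were the highest. The lowest were *Lrp5* (0.329, 0.0081 to 1.96, on 34 and 1) and the Wnt target *Sp5*, with 33 UMIs in WT and 0 in A20ZF7. The interval of *Sp5* reached 1.32. Without leukocyte UMIs, 26 A20ZF7 epithelial barcodes remained. In them *Ror1*, *Lrp5* and *Sp5* had 0 UMIs and *Znrf3* had 2, a ratio of 5.41 (0.583 to 24.8).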

How the data were processed

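The authors deposited, for each genotype, 1 gene expression matrix of raw UMI counts for all droplets and 1 antibody matrix (Cell Ranger 7.1, R 4.3.3, Seurat 4.3 and mm10 in the submitters' processing notes). The matrix headers name Cell Ranger 8.0.0 and 7.1.0. The gene lists held 33696 IDs in WT and 32285 in A20ZF7, and the 31950 shared IDs were used. The antibody matrices of both genotypes were identical, so hashtags 7 and 8 were read for WT only.

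Barcodes had at least 675 (WT) or 396 (A20ZF7) UMIs, a limit set from the most abundant barcodes of each library, with 200 to 2500 genes and at most 15% mitochondrial counts. WT barcodes with both hashtags (HTODemux) were removed as doublets; in A20ZF7 doublets between mice stayed, and Scrublet removal was an alternative. The libraries shared 913 kept barcodes. Clustering used Seurat 5.3.0 in R 4.3.3 (30 principal components, resolution 0.8, S and G2/M scores regressed), with the 10 genes left out. A cluster took the name of the marker list with the highest mean log2 fold if that was at least 1.0; in the first round the T cell and leukocyte lists also had to be at most 0.3, and in the second round a cluster with at least 3 pancreatic genes among its 10 leading genes stayed unnamed. These naming limits were set after the clusters were seen.

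Levels are CPM (UMIs over all UMIs of a class and library, times 1000000) with exact Poisson intervals, and ratios have exact conditional binomial intervals (SciPy 1.17.1, 95%). A gene counted as measured with 20 UMIs over both libraries. UMIs were thinned to 500 per barcode for shares, leaving out 673 shallower A20ZF7 fibroblast barcodes. A count of 0 was given an upper limit of 3 UMIs. All members were named; of the pathway lists, the 4 highest and 4 lowest ratios in fibroblasts and the 2 highest and 2 lowest in the other classes were named, except 1 result that is not reported here. With 1 library per genotype no test was run. Promoters came from RefSeq (GRCm38.p6) and gene positions from GENCODE vM21 (GRCm38). The members and lists were chosen with earlier results of these data known. Scripts were tested on simulated counts.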

Additional observations from a re-analysis of the deposited data

Results flagged for a closer look

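*Bmp4* had a ratio of A20ZF7 to WT of 1.275 in smooth muscle clusters and 0.665 in fibroblast clusters. These lay on opposite sides of 1 with intervals that both left out 1, and the difference was not tested. In the named smooth muscle-like sub-clusters together the ratio was 1.203, with an interval (0.9743 to 1.485) that included 1. The ratio lay below 1 in sub-clusters 5 and 9 and above 1 in 13 and 18, each with an interval that included 1. Over 16 alternatives the smooth muscle ratio ran from 1.026 to 1.801, above 1 in all. Near-empty droplets held *Bmp4* at 40.91 CPM in WT and 55.8 CPM in A20ZF7. A cluster outside the 4 classes was led by immunoglobulin genes and named from the plasma cell list (180 WT and 1456 A20ZF7 barcodes). With both libraries summed, 3 members stood there above the upper bound of the near-empty level: *Rspo3* at 30.8 CPM, *Bmp4* at 108 CPM and *Bmp5* at 69.7 CPM. In WT and A20ZF7 apart they were at 53.3 and 26.6 CPM, 85.25 and 112.5 CPM, and 111.9 and 61.8 CPM. The libraries were not read against this bound separately.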

How the results depend on the processing

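Of 392 member ratios under alternatives, over 27 member and class pairs, 339 lay within the interval of the reported ratio and 53 lay outside it. Each of the 4 reported as past 2-fold stayed on its side of 1 in the alternatives that gave it a ratio. In fibroblasts, over 17 alternatives, *Grem1* ranged from 1.26 to 1.85, *Wnt4* from 0.297 to 0.542, *Wnt5a* from 0.463 to 0.735, *Bmp5* from 0.392 to 0.785, *Bmp4* from 0.578 to 0.907 and *Rspo2* from 0.540 to 0.873, each on its side of 1 throughout. The settings without a WT mouse kept only the WT barcodes hashtagged to the other mouse, so unassigned WT barcodes were left out too. Of 5336 WT fibroblast barcodes, 1016 remained without mouse 1 and 882 without mouse 2. *Bmp7* (0.543 to 1.06, the highest without WT mouse 1) and *Rspo1* (0.738 to 1.18) crossed 1. So did *Rspo3* (0.838 to 1.09) and *Wnt2b* (0.464 to 1.10), both highest without WT mouse 2. Elsewhere 1 was crossed in smooth muscle by *Bmp5* (1.49) and *Bmp7* (0.710) without WT mouse 2 and *Rspo3* (1.106) without mouse 1, in endothelial clusters by *Bmp4* (1.21 without mouse 2) and *Rspo3* (up to 1.22), and in epithelial clusters by *Bmp4* (0.783 without leukocyte UMIs). The count of fibroblast members at least 2-fold lower was 3 with at least 1000 UMIs per barcode, 3 with the near-empty level taken off, 0 in barcodes without leukocyte UMIs and 5 at 1.5-fold. In smooth muscle the count higher was 1 with 200 genes alone as the filter, without leukocyte UMIs, with classes from marker UMIs and after thinning, and 2 at 1.5-fold; the count lower was 0 without leukocyte UMIs and with classes from marker UMIs, and 3 with the near-empty level taken off and at 1.5-fold. In endothelial clusters the count higher was 0 with marker UMIs, after thinning, with the near-empty level taken off and with at least 50 UMIs, and 3 at 1.5-fold, and the count lower was 1 with the near-empty level taken off and at 1.5-fold. In epithelial clusters the count higher was 2 with 200 genes alone, at resolution 0.4, with at least 10 UMIs and at 1.5-fold, and 0 without leukocyte UMIs, with marker UMIs, after thinning, with the near-empty level taken off and with at least 50 UMIs, and the count lower was 1 with marker UMIs and with at least 10 UMIs. Leaving out 1 WT mouse and the unassigned WT barcodes gave counts from 0 to 2 in smooth muscle, endothelial and epithelial clusters. Over all genes, a minimum of 10 UMIs gave 842 lower in smooth muscle and 842 in endothelial clusters. A minimum of 50 UMIs gave 405 lower in fibroblasts, 588 higher and 247 lower in smooth muscle, 489 and 323 in endothelial and 694 and 794 in epithelial clusters. The cause of these moves was not tested. Ratios with a count of 0, or with fewer than 20 UMIs over both libraries, gave no value. *Grem1* in epithelial clusters therefore had a ratio in 10 alternatives and *Bmp7* in endothelial clusters in 11. No paired analysis was possible because the comparison has 1 library per genotype and no test. Depth limits the epithelial values of all members and the endothelial values of those with few UMIs.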
